A study of Mus musculus with 4 samples.

Results

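The 5 genes described here, Nqo1, Acsm4, Ncam2, Robo2 and Robo1, are named for their place along the dorsal-ventral axis of the olfactory epithelium. They were taken by symbol from the 49671 gene symbols of 4 tables of unique molecular identifiers (UMIs), and all 5 were present. Each table is 1 library of olfactory epithelium, taken from the outbred mouse strain CD-1 on postnatal day 0, 3, 7 or 21, here called P0, P3, P7 and P21. No treatment or other genotype is given for any of them. By its title, the series concerns neurons that guide formation of the olfactory map during a critical period. The libraries were made after papain dissociation from sorted cells, and neither the gate of that sort nor the number and sex of the mice is given in the sources used here. With 1 library per age, age and library cannot be told apart, no test across ages was possible, and all intervals are 95% intervals that cover counting error only, exact for levels, ratios and shares and, for a difference of shares, built from the exact intervals of both.

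The olfactory epithelium is divided into zones that differ in which odorant receptors their olfactory sensory neurons (OSNs) use, and each zone sends its axons to a matching dorsal or ventral domain of the olfactory bulb. Nqo1, a quinone reductase, and Acsm4 (also called O-MACS), a medium-chain acyl-CoA synthetase, are known markers of the dorsal zone. Ncam2 (OCAM), a neural cell adhesion molecule, marks the other, ventral zones. Robo2 is a receptor for the Slit repellents, and in the mouse its transcript grades from high dorsomedial to low ventrolateral. Robo1 is a close relative of Robo2 that binds the same ligands. Mature OSNs make Omp, the olfactory marker protein, and immature OSNs make Gap43, a growth-associated protein of extending axons.

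In GRCm38 (mm10), Nqo1 lies on chromosome 8 from 107388225 to 107403206 (minus strand) and Acsm4 on chromosome 7 from 119690026 to 119714565 (plus strand). The other members share chromosome 16: Robo1 from 72308306 to 73046095 (plus), Robo2 from 73891839 to 74411825 (minus) and Ncam2 from 81200697 to 81626828 (plus). Robo1 and Robo2 are thus neighbours with 846 kb between them. For none of the 5 did another annotated gene share an exact run of 60 bases with the last 500 bases of its coding transcripts, the part that 3' libraries read.

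Promoters, 250 bases before to 50 bases after the start of the gene as RefSeq gives it on GRCm38.p6, are shown for the dorsal pair that was detected together and for the ventral gene that was detected apart from them. They span chr8:107403156-107403455 (minus strand) for Nqo1, chr7:119689776-119690075 (plus) for Acsm4 and chr16:81200447-81200746 (plus) for Ncam2. Capitals mark the match to a searched motif.
Nqo1: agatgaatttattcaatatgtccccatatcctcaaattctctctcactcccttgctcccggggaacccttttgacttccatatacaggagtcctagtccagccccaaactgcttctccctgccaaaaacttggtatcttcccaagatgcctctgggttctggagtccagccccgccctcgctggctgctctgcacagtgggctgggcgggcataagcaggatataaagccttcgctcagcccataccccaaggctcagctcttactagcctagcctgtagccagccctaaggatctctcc
Acsm4: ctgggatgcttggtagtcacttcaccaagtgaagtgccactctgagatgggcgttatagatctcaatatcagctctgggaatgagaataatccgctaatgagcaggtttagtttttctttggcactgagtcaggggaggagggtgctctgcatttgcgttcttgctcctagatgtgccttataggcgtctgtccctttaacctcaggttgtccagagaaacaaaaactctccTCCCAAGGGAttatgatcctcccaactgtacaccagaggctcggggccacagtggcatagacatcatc
Ncam2: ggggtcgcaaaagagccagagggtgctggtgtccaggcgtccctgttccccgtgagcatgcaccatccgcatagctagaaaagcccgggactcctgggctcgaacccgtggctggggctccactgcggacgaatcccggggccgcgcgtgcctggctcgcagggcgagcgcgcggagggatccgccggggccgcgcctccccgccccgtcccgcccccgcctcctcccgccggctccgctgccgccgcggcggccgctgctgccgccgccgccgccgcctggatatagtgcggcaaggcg
Motifs were searched on both strands: the antioxidant response element (TGACNNNGC), the homeodomain site (TAATTA), the Ebf site (TCCC and GGGA with 2 bases between them) and the nuclear factor I site (TTGGC and GCC with 5 bases between them). The 1 match in the 3 windows was an Ebf site in Acsm4 (TCCCAAGGGA, first base at position -18 from the start). The Ebf motif is its own reverse complement, so the match has no strand. Of 32851 RefSeq promoters of this length, 0.904% held the Ebf site, 12.4% the antioxidant response element, 5.29% the homeodomain site and 1.38% the nuclear factor I site. The Ncam2 window was richer in G and C (75.7%) than those of Nqo1 (53.7%) and Acsm4 (49.0%).

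The tables held 2703, 3220, 1787 and 1416 cell barcodes, where the protocol states about 1400 to 3000 cells per sample. After filtering, 2679, 3213, 1779 and 1413 cells were used at P0, P3, P7 and P21, with medians of 3221, 4980, 4680 and 4409 UMIs per cell. Cells with at least 3 Omp UMIs, the Omp gate, numbered 610, 615, 474 and 958. Cells with at least 3 Gap43 UMIs, the Gap43 gate, numbered 938, 848, 537 and 256, and 287, 327, 142 and 141 cells passed both. The summed level of 10 mature OSN markers was 14123 to 24344 CPM in the Omp gate and 4270 to 8381 CPM in the Gap43 gate, and that of 6 immature OSN markers 2839 to 5589 CPM and 9131 to 10449 CPM. Both gates carried the markers of their label, with those of the other stage beside them. The sums include Omp and Gap43 themselves, so this was in part set by the gates. Omp alone was 2744 to 5693 CPM in the Omp gate, and Gap43 alone 2736 to 3245 CPM in the Gap43 gate. The P3 and P0 libraries shared 68 cell barcodes, against 11.8 that chance would give, and the other pairs of libraries shared 1 to 9. Without the barcodes found in more than 1 library, the difference in Acsm4 by Nqo1 in the Omp gate was 47.9 percentage points (48.0 with them), that in Ncam2 -8.53 (-8.54 with them) and the log2 ratio of Nqo1 at P21 over P0 -1.05 (-1.04 with them).

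The first question was whether single cells carried a dorsal or a ventral set of these genes. In mature cells Nqo1 and Acsm4 were found together and Ncam2 was found apart from both, in all 4 libraries, while Robo2 differed by a few points after thinning and Robo1 not detectably. Cells were thinned to 1500 UMIs each so that all were read at the same depth, which left 573, 609, 460 and 902 Omp gate cells. The gates themselves were set on the counts before thinning, so depth still bears on which cells passed. Nqo1 was detected in 329, 300, 209 and 313 of them. Acsm4 was detected in 64.4%, 64.3%, 56.5% and 62.0% of the Nqo1-positive cells at P0, P3, P7 and P21, against 11.9%, 13.6%, 18.7% and 11.2% of the Nqo1-negative cells. The 2 ranges lay far apart, and the mean difference was 48.0 percentage points (range over libraries 37.7 to 52.6), with an interval that left out 0 in each library. In all, 717 cells held both transcripts, against 419 expected if the genes were independent within each library.

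Ncam2 showed the opposite pattern. It was detected in 1.82%, 2.67%, 0.478% and 2.24% of the Nqo1-positive Omp gate cells, against 8.20%, 12.9%, 11.6% and 8.66% of the Nqo1-negative ones. The groups did not overlap, and the mean difference was -8.54 points (range -11.1 to -6.37), with an interval that left out 0 in each library. Cells with both numbered 22, against 72.3 expected. In 3 further random thinnings the difference went down to -11.4 points, and with the counts as deposited, not thinned, it was -26.5 points. Acsm4 gave the same split without Nqo1: Ncam2 was found in 1.19% of Acsm4-positive and 9.25% of Acsm4-negative cells (means of 4 libraries), and 11 cells held both, against 56.9 expected.

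Among the 5966 genes that were detected in 2 to 98% of these cells in every library, 0.101% were at least 1.5 times as frequent in Nqo1-positive as in Nqo1-negative cells in all 4 libraries, and 0.285% were at least 1.5 times less frequent. Acsm4 was among the 6 genes higher by this measure and Ncam2 among the 17 lower. Robo2 passed the frequency filter and neither fold. Robo1 was too rare to pass it.

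Robo2, the Slit receptor, was slightly more frequent in the Nqo1-positive mature cells. It was detected in 10.6%, 11.3%, 16.3% and 12.1% of the Nqo1-positive Omp gate cells, against 8.20%, 7.77%, 9.56% and 8.49% of the Nqo1-negative cells. The difference averaged 4.09 points (range 2.44 to 6.71) and was positive in 4 of 4 libraries, but its interval left out 0 in 1 of them, P7 (0.292 to 13.3 points). It was between 4.09 and 6.18 points over 4 random thinnings of the same cells, 7.78 points at 2500 UMIs and 13.7 points with the counts as deposited, where Robo2 was in 30.8%, 42.4%, 41.9% and 32.6% of the Nqo1-positive cells, against 17.8%, 23.6%, 29.0% and 22.5% of the Nqo1-negative cells. The size of the Robo2 difference thus depended on depth. By Acsm4, Robo2 differed by 0.888 points in the thinning reported here, the lowest of the 4 thinnings, by up to 4.08 points in the others and by 11.5 points not thinned. By Ncam2 it differed by -1.95 points (-4.06 to -0.861 over the thinnings, -6.49 not thinned).

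Robo1 was detected in 2.62%, 1.64%, 1.74% and 2.11% of all Omp gate cells, so pairs with it rest on 52 cells. Its share was 2.09% in Nqo1-positive and 1.86% in Nqo1-negative cells (means of 4 libraries), and the difference changed sign between libraries and between thinnings. Robo1 and Robo2 were found in the same cell 7 times in the Omp gate, against 5.25 expected, and 7 times in the Gap43 gate, against 5.86. At this depth a link or an avoidance between the 2 receptors was not detectable.

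**Figure D1:**
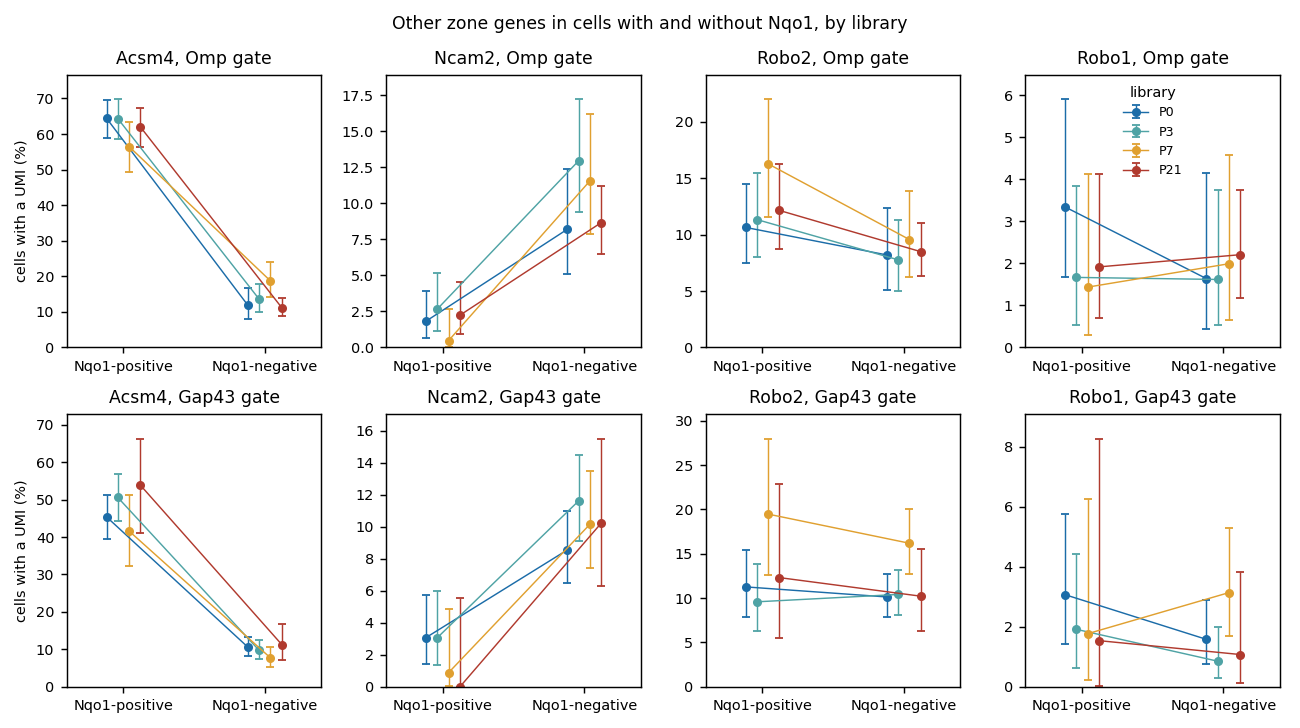
Share of cells with at least 1 UMI of Acsm4, Ncam2, Robo2 or Robo1 (vertical axes, %, each panel with its own scale) among Nqo1-positive and Nqo1-negative cells, in the Omp gate (top) and the Gap43 gate (bottom), after thinning to 1500 UMIs. Points are libraries and bars exact 95% binomial intervals. In every library Acsm4 falls steeply from the positive to the negative cells and Ncam2 climbs. Robo2 is slightly higher in the positive cells of each library in the Omp gate and has no steady direction in the Gap43 gate. Robo1 has no steady direction in either gate.

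The same split was present in cells with Gap43. Nqo1 was detected in 293, 261, 113 and 65 of the 925, 847, 527 and 251 thinned Gap43 gate cells. Acsm4 was found in 45.4%, 50.6%, 41.6% and 53.8% of the Nqo1-positive cells, against 10.6%, 9.73%, 7.73% and 11.3% of the Nqo1-negative cells, a mean difference of 38.0 points. Ncam2 was found in 3.07%, 3.07%, 0.885% and 0% of the Nqo1-positive cells, against 8.54%, 11.6%, 10.1% and 10.2% of the Nqo1-negative cells, a mean difference of -8.37 points. The 0 at P21 was 0 of 65 cells, which allows a share of up to 4.62%. In this gate 1.05% of 6009 genes were at least 1.5 times as frequent in the Nqo1-positive cells in all 4 libraries and 1.38% at least 1.5 times less frequent, and Acsm4 and Ncam2 were again among them.

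Robo2 in the Gap43 gate was detected in 11.3%, 9.58%, 19.5% and 12.3% of the Nqo1-positive cells, against 10.1%, 10.4%, 16.2% and 10.2% of the Nqo1-negative cells. The groups overlapped, and the mean difference of 1.42 points (range -0.831 to 3.29) had no library whose interval left out 0. It was between 0.988 and 4.28 points over 4 random thinnings of the same cells, and 7.58 points without thinning. Across libraries, Robo2 was most frequent in the P7 Gap43 gate (16.9% of all its cells, against 10.2% to 10.8% in the others).

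Because Nqo1 is tied to maturity inside the Gap43 gate, the pairs were also read within bins of stage set by Omp and Gap43 alone. In Gap43-positive cells with no Omp UMI at all, 38 cells held Nqo1 and Acsm4, against 17.2 expected, and 5 held Nqo1 and Ncam2, against 13.9. With 1 or 2 Omp UMIs, 54 cells held the dorsal pair, against 23.9 expected, and 1 cell held Nqo1 with Ncam2, against 9.31. Acsm4 was more frequent beside Nqo1, and Ncam2 less frequent, in 4 of 4 libraries in both bins. In cells past both gates the counts were 255 against 154 for Acsm4 and 12 against 33.5 for Ncam2. In Gap43 cells with no Omp UMI, the interval for Acsm4 left out 0 at P0, P3 and P7 but not at P21 (-4.89 to 46.3 points). For Ncam2 the interval held 0 in each library, both with no Omp UMI and with 1 or 2. Before Omp was detected, the Acsm4 side of the split was thus seen at P0, P3 and P7. The Ncam2 side was seen there only as a like direction in each library. Among precursors, with 61 Nqo1-positive cells, there were 10 cells with Acsm4 against 11.2 expected, and no association was detectable. Robo2 gave no steady sign over the bins: it was higher beside Nqo1 in 4 of 4 libraries in cells past both gates and in cells with Omp and no Gap43, and lower in 3 of 4 in Gap43-only cells and in Omp cells with 1 or 2 Gap43 UMIs.

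Of the 22 mature cells with both Nqo1 and Ncam2, 10 had a single Nqo1 UMI. In each library the median Nqo1 count of these cells was 1 to 3 UMIs, against 4 or 5 UMIs in cells with Nqo1 and no Ncam2. A second odorant receptor was seen in 2 of the 22 cells, in 56 of 1129 cells with Nqo1 alone and in 9 of 140 cells with Ncam2 alone. Cells with neither gene were 1253 of 2544. They numbered 224, 269, 222 and 538 at P0, P3, P7 and P21, against 323, 292, 208 and 306 with Nqo1 alone, so that they were the larger group at P7 and P21 only. The absence of Nqo1 did not by itself mark a cell as Ncam2-positive at this depth.

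The second question was when each gene comes on as neurons form. The 5 genes followed different courses over 6 ordered bins, from precursors (with Neurog1, Neurod1 or Tex15) through Gap43 cells to Omp cells. Nqo1 gained most of its level late, Ncam2 and Robo2 were on by the first Gap43 stage, Acsm4 was present in precursors and lowest in Gap43 cells without Omp, and Robo1 was low in all bins.

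Nqo1 was low in the earliest bin, at 34.7, 20.5, 23.6 and 24.6 CPM in precursors at P0, P3, P7 and P21. It was 232, 129, 108 and 124 CPM in Gap43 cells without Omp, 550, 450, 311 and 186 CPM with 1 to 2 Omp UMIs, and 2088, 1869, 917 and 1115 CPM in cells past both gates. In cells with Omp and no Gap43 it was 2610, 1662, 1810 and 1132 CPM. In CPM, the largest step in each library was between 1 to 2 and at least 3 Omp UMIs. As a fold that step was 3.80, 4.15, 2.95 and 5.98, against 6.68, 6.28, 4.57 and 5.01 for the step between precursors and Gap43 cells without Omp, which was the larger at P0, P3 and P7. Between cells in the Omp gate alone and cells in the Gap43 gate alone, Nqo1 was 2642, 1734, 1667 and 1159 CPM, against 361, 230, 163 and 154 CPM. The fold was 7.31, 7.54, 10.3 and 7.54, a mean log2 difference of 3.01 (range 2.87 to 3.36), against a median of -0.20 over all genes compared. With cells past both gates counted in both, the mean was 1.15.

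Acsm4 took another course. It was 208, 287, 142 and 141 CPM in precursors and at its lowest in Gap43 cells without Omp, at 130, 111, 54.3 and 74.7 CPM. It was 567, 495, 402 and 375 CPM in cells past both gates and 610, 559, 569 and 335 CPM in cells with Omp and no Gap43.

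Acsm4 was 621, 528, 562 and 351 CPM in cells of the Omp gate alone, against 170, 154, 80.3 and 152 CPM in cells of the Gap43 gate alone. The fold was 3.65, 3.44, 7.00 and 2.31. By a threshold of 1.5-fold in each of 4 libraries, 2 of the 5 members, Nqo1 and Acsm4, were higher in the Omp gate, beside 13.6% of the 7994 genes with at least 20 UMIs in either group, and 0 of 5 were lower, beside 16.9%. All 5 passed that floor.

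Ncam2 was nearly absent before Gap43 and on in Gap43 cells. It stood at 3.42, 3.75, 5.39 and 7.39 CPM in precursors. In Gap43 cells without Omp it was 54.6, 47.7, 73.0 and 103 CPM. In cells with Omp and no Gap43 it was 29.4, 47.7, 53.4 and 44.3 CPM, lower than in Gap43 cells without Omp at P0, P7 and P21 and about the same at P3. It was 32.6, 41.3, 54.4 and 46.6 CPM in the Omp gate alone, against 50.6, 52.4, 78.9 and 88.1 CPM in the Gap43 gate alone. The fold was 0.645, 0.788, 0.690 and 0.529, and its interval held 1 at P3 (0.574 to 1.07). The mean log2 difference was -0.61 (range -0.92 to -0.34), and it was -0.43 with median-of-ratios scaling, which moved all genes up by about 0.18.

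Robo2 was detected in an earlier bin than Ncam2. It was already at 51.8, 34.4, 67.4 and 32.0 CPM in precursors, and it was at 74.8, 90.4, 107 and 71.8 CPM in Gap43 cells without Omp. It then stayed between 43.5 and 118 CPM in the 4 later bins. Its mean log2 difference between the Omp and Gap43 gates was -0.14 as summed and 0.04 with median-of-ratios scaling, so no direction is given. Robo1 lay between 4.66 and 25.6 CPM in all bins and libraries. Most intervals overlapped, but at P3 it was 23.8 CPM in precursors (19.5 to 28.8) and 4.66 CPM in cells with Omp and no Gap43 (1.27 to 11.9). Its stage difference between the gates, -0.03, also changed sign with scaling (0.14).

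**Figure D2:**
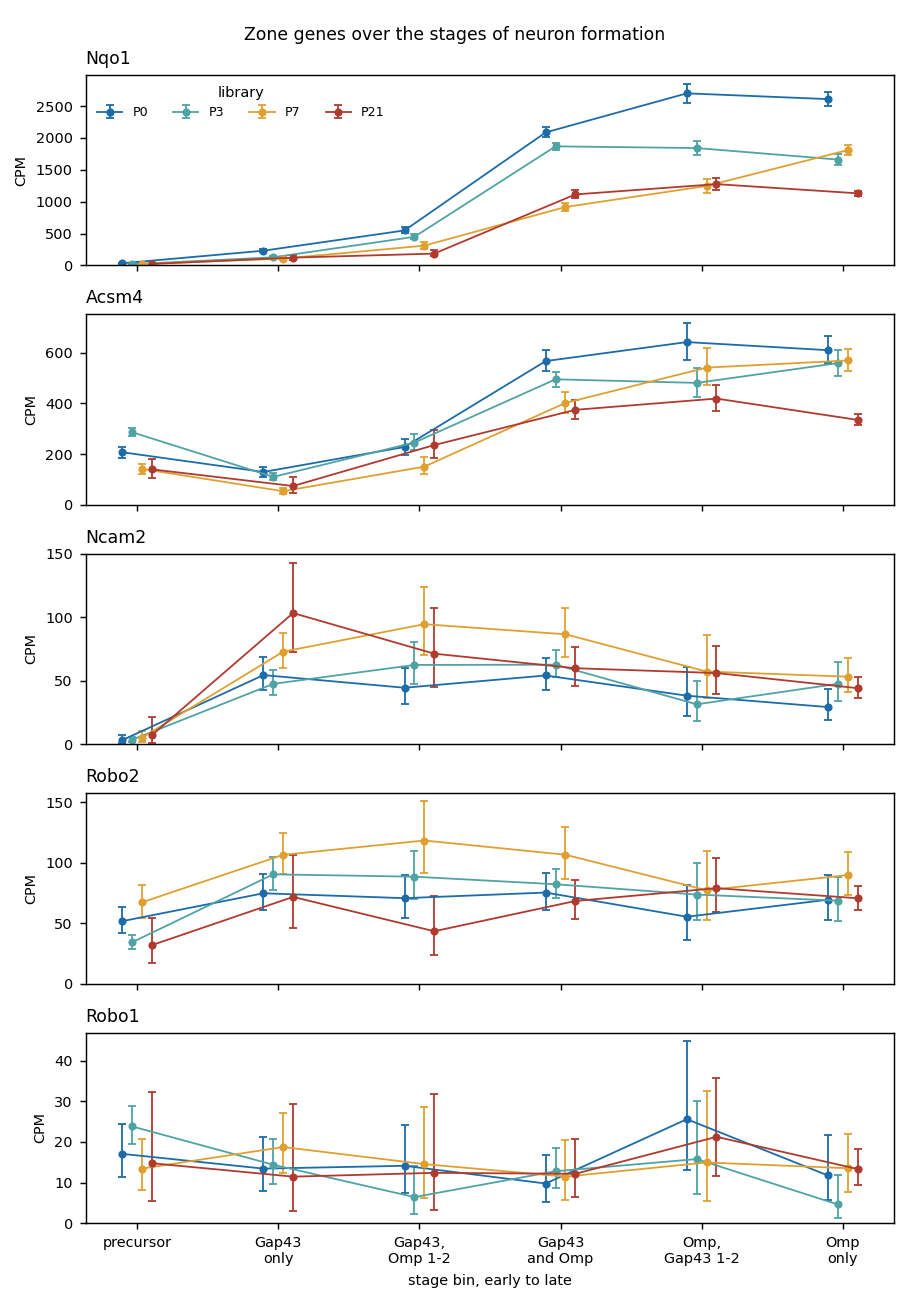
Level of each gene in CPM of summed UMIs (vertical axes, linear, each panel with its own scale) over 6 stage bins from precursors to cells with Omp and no Gap43 (horizontal axis). Points are libraries, coloured by age, and bars exact 95% Poisson intervals; Nqo1 climbs at the step to Omp, Acsm4 is lowest in Gap43-only cells, and Ncam2 and Robo2 are higher in Gap43-only cells than in precursors, after which Ncam2 descends at P21.

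The third question was how the genes stood at the 4 ages. In the Omp gate both dorsal genes were lower at P21 than at P0, and the ventral gene and the Robo genes were not. Nqo1 was 2364, 1817, 1385 and 1149 CPM at P0, P3, P7 and P21, a descending order with no overlap of the counting intervals. At P21 it was 0.486-fold the P0 level (0.468 to 0.504). It was 0.632-fold the P3 level and 0.830-fold the P7 level. Acsm4 was 594, 508, 502 and 357 CPM, where the P3 and P7 libraries did not differ beyond their intervals. At P21 it was 0.600-fold the P0 level (0.560 to 0.644).

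Both the share of cells and the amount per cell moved. Nqo1 was detected in 57.4%, 49.3%, 45.4% and 34.7% of the thinned Omp gate cells, with 6.19, 5.29, 4.43 and 4.96 UMIs on average in the cells that had it. Cells with 8 or more Nqo1 UMIs were 19.2%, 12.2%, 6.96% and 6.10%. Acsm4 was detected in 42.1%, 38.6%, 35.9% and 28.8% of the cells, with 2.23, 1.89, 1.90 and 1.91 UMIs on average where found. A smaller share of cells was thus common to both genes, and a lower amount per positive cell was clearest for Nqo1 between P0 and the later libraries.

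Ncam2 in the Omp gate was 43.5, 54.5, 66.6 and 49.7 CPM, Robo2 70.0, 77.8, 94.2 and 71.4 CPM, and Robo1 13.2, 11.4, 13.0 and 14.2 CPM. The P21 to P0 folds were 1.14 (0.909 to 1.44), 1.02 (0.849 to 1.23) and 1.08 (0.702 to 1.67), and each interval holds 1. Ncam2 and Robo2 were highest in the P7 library, where P21 was 0.746-fold (0.609 to 0.916) for Ncam2 and 0.758-fold (0.639 to 0.899) for Robo2. Of the 5 members, 2 were at least 1.5-fold lower and 0 at least 1.5-fold higher at P21 than at P0. Of 10646 genes with at least 20 UMIs in either library, 10.7% were lower and 19.5% higher by this measure.

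The Omp gate itself differed between the ages: within it Omp was 2.05-fold as high at P21 as at P0 and Gap43 0.450-fold, and cells past both gates were 14.7% of it at P21 and 47.0% at P0. Nqo1 was also lower at P21 than at P0 within bins of stage. It stood at 1115 CPM at P21 against 2088 CPM at P0 in cells past both gates. In Omp cells with 1 to 2 Gap43 UMIs it was 1276 against 2700 CPM, and in Omp cells without Gap43 1132 against 2610 CPM. The bins did not match the ages in stage. Omp was higher at P21 in each, at 2670 against 1834 CPM, 6055 against 3413 CPM and 6744 against 3910 CPM in the same order. The part of maturity in the lower Nqo1 level was not tested. The share of cells led by a class I receptor, which are dorsal, also differed with age, and Nqo1 was lower within each receptor class. Class II joins receptors of all zones, and the part of the receptor or zone mix in the lower Nqo1 level was not tested.

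In the Gap43 gate Nqo1 was 1001, 943, 404 and 744 CPM and Acsm4 317, 302, 183 and 289 CPM, both lowest at P7. Ncam2 was 51.9, 56.9, 81.4 and 70.8 CPM, Robo2 74.0, 86.5, 109 and 64.5 CPM, and Robo1 12.3, 12.3, 15.7 and 12.1 CPM, all 3 highest at P7. The P21 to P0 fold was 0.744 (0.697 to 0.793) for Nqo1, 0.911 (0.819 to 1.01) for Acsm4, 1.36 (1.08 to 1.72) for Ncam2, 0.872 (0.692 to 1.09) for Robo2 and 0.984 (0.556 to 1.69) for Robo1. None of the 5 passed 1.5-fold in either direction, beside 12.1% of 9927 genes higher and 10.5% lower. Cells past both gates made up 30.6%, 38.6%, 26.4% and 55.1% of the Gap43 gate, so that its most mature part was smallest at P7 and largest at P21, as was its Omp level relative to P7 (2.25-fold at P21). Within Gap43 cells without Omp, Nqo1 was 232, 129, 108 and 124 CPM, with the last 3 libraries close together.

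**Figure D3:**
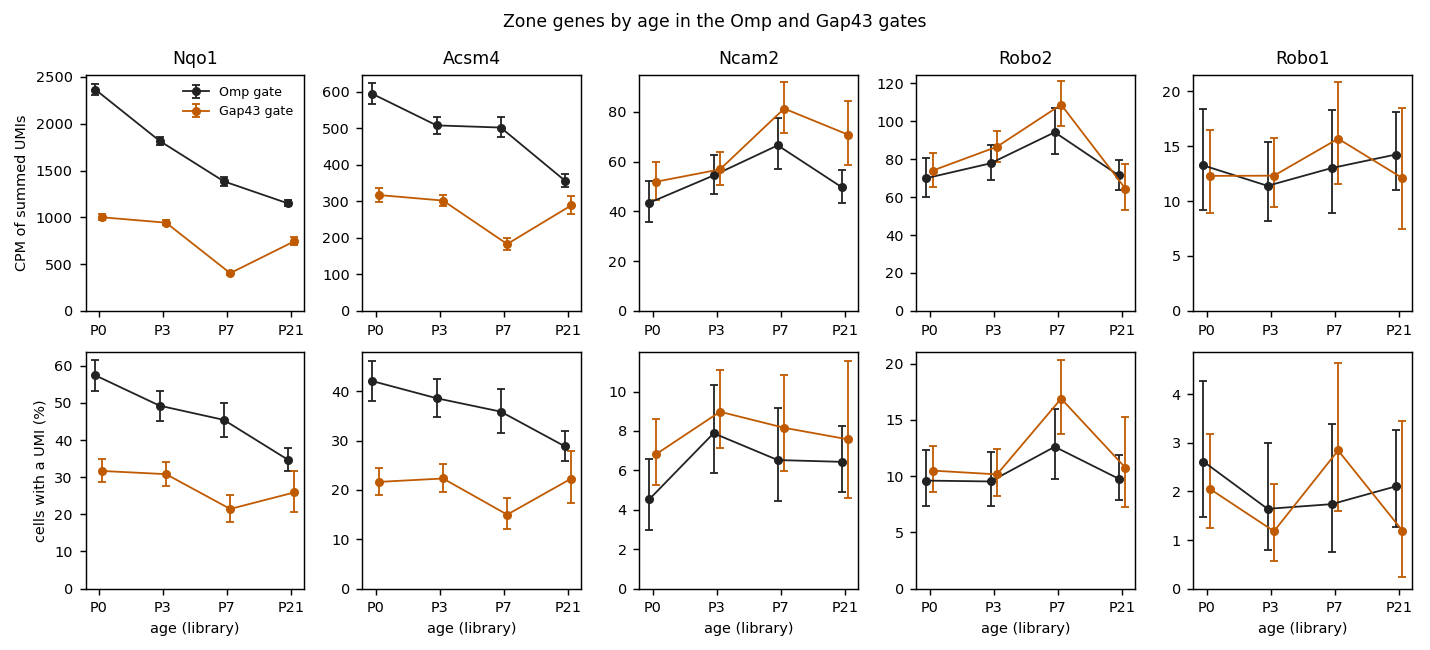
Level in CPM of summed UMIs (top) and share of cells with at least 1 UMI after thinning to 1500 UMIs (bottom, %) of each gene at the 4 ages (horizontal axes), in the Omp gate (black) and the Gap43 gate (orange). Bars are exact 95% intervals, and vertical scales differ between genes; Nqo1 and Acsm4 descend with age in the Omp gate, while Ncam2, Robo2 and Robo1 show no such order.

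Each OSN expresses mainly 1 odorant receptor, so the zone genes were next read by the receptor that led each cell (at least 3 UMIs and at least 2 times the next receptor gene). A leader was found in 2276 of 2657 Omp gate cells, 83.1% to 88.0% per library. Class I receptors, 156 genes in a cluster on chromosome 7 from 102476579 to 105369355, are used in the dorsal zone, and class II receptors in all zones. Nqo1 was detected in 91.8%, 84.7%, 83.3% and 80% of class I-led cells, against 54.2%, 45.8%, 40.4% and 31.1% of class II-led cells. Acsm4 was detected in 80.3%, 73.6%, 63.0% and 78.0% of class I-led cells, against 35.8%, 32.8%, 30.4% and 24.7% of class II-led cells. Neither pair of ranges overlapped.

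Ncam2 gave 3 UMIs in the 249 class I-led cells of all libraries, against 599 UMIs in 2006 class II-led cells. Per library it stood at 0 to 3.77 CPM in class I-led cells, against 45.1 to 74.6 CPM in class II-led cells. Robo2 was higher in the class I-led cells of each library, at 94.2, 130, 155 and 92.2 CPM, against 63.8, 72.1, 80.6 and 69.9 CPM in class II-led cells. In the Gap43 gate Robo2 was detected in 17.3% of 266 class I-led cells and in 9.36% of 1421 class II-led cells (4 libraries together). Robo1 was detected in 8 of 237 thinned class I-led Omp gate cells and in 38 of 1937 class II-led ones.

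The age difference of Nqo1 was of like size in both classes. In class I-led Omp gate cells Nqo1 was 2883 CPM at P21 and 5405 CPM at P0 (0.533-fold, 0.489 to 0.582), and in class II-led cells 1045 and 2060 CPM (0.507-fold, 0.486 to 0.530). Acsm4 was 979 CPM at P21 and 1157 CPM at P0 in class I-led cells (0.846-fold, 0.716 to 0.999), and 303 and 523 CPM in class II-led cells (0.580-fold, 0.533 to 0.632). Class I-led cells were 7.00% of the led cells at P21 (5.37 to 8.94%), against 12.2% at P0 (9.53 to 15.4%).

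Cells led by trace amine receptors (Taar genes) stood apart. They numbered 21 in the Omp gate, and their leaders are known dorsal receptors. Acsm4 gave 91 UMIs in them and was 640 to 1117 CPM per library, between the levels of class I-led and class II-led cells at P0, P3 and P21 and above both at P7. Nqo1 gave 6 UMIs in them, with none at P0 and P3, 107 CPM at P7 and 37.3 CPM at P21. Of the 20 such cells left after thinning, 14 had Acsm4 and 1 had Nqo1. These cells were singled out after their values were seen, and with 2 to 8 cells per library the levels rest on few cells.

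For 11 receptors at least 10 Omp gate cells were available, 139 cells in all. Cells led by 1 receptor tended to be all or none for Nqo1. Nqo1 was in at least 80% of the cells of 6 receptors, in at most 20% of the cells of 3 and in between for 2. It was found in 17 of 17 Olfr77 cells, 15 of 15 Olfr1176 cells, 11 of 11 Olfr1030 cells, 10 of 10 cells each of Olfr1406 and Olfr672, and 10 of 12 Olfr959 cells. It was found in 0 of 19 Olfr536 cells, 0 of 10 Olfr1301 cells and 1 of 12 Olfr55 cells. Olfr1437 (5 of 10) and Olfr827 (5 of 13) lay between. Their means were 2 and 1 Nqo1 UMIs per cell, against 4.17 to 11.3 in the 6 high receptors. These means take in the cells without Nqo1, so they also follow the share of cells with it. The cell counts join libraries that differed in Nqo1. It was in 3 of 3, 2 of 3, 0 of 1 and 0 of 3 Olfr1437 cells at P0, P3, P7 and P21. For Olfr827 it was in 4 of 6 cells at P3 and 1 of 7 at P21. Of the 19 Olfr536 cells, 15 were from P21.

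Acsm4 was in 58.3% to 100% of the cells of the 6 receptors high in Nqo1 and in 0% to 25.0% of those of the 3 low ones. Ncam2 was in 0% of the cells of each of the 6 high receptors. Among the 3 low ones it was in 15.8% of Olfr536 cells, 20% of Olfr1301 cells and 0 of 12 Olfr55 cells. Receptors whose position along the zones is known from other work gave few cells: Nqo1 was in 6 of 6 Olfr16, 5 of 6 Olfr73 and 6 of 8 Olfr160 cells, in 2 of 7 Olfr17 cells, and in none of 3 Olfr1507, 2 Olfr2 and 2 Olfr6 cells. Near-identical receptor genes can share reads, so the identity of a single leader is uncertain.

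**Figure D4:**
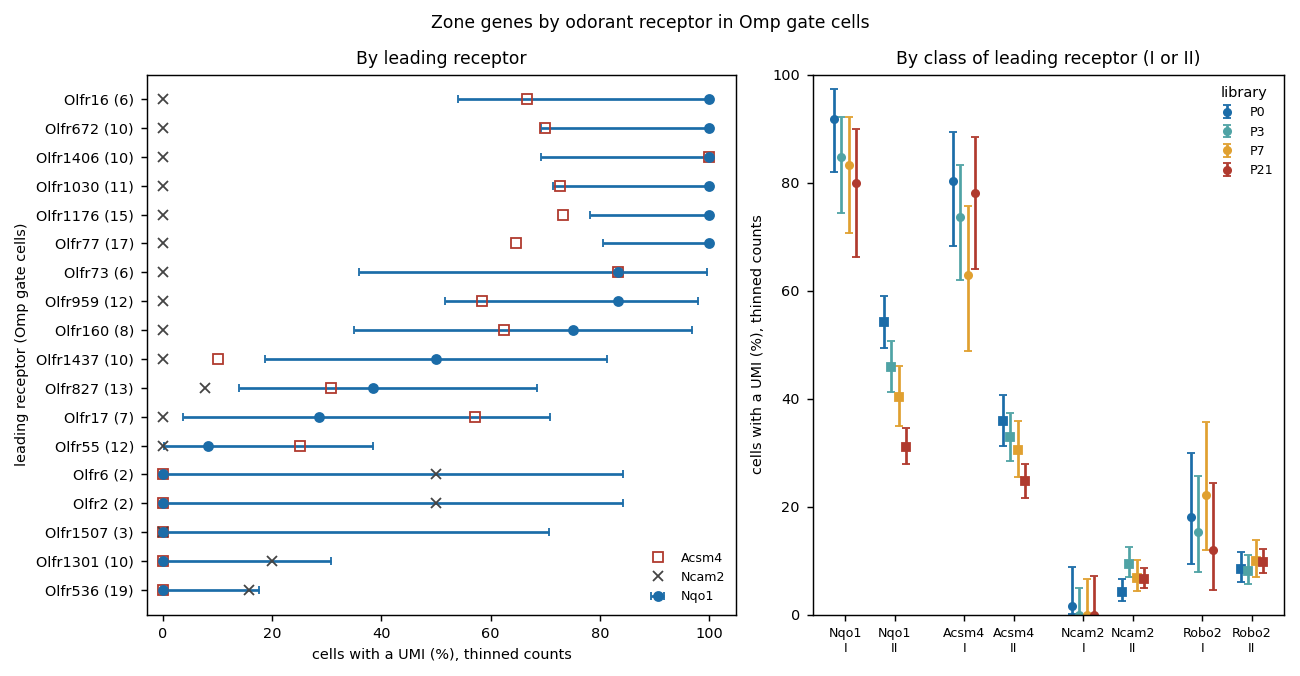
Left, share of Omp gate cells with Nqo1 (blue, with exact 95% binomial interval), Acsm4 (open squares) and Ncam2 (crosses) by leading receptor (at least 10 cells, or of known zone), with the number of cells in brackets and the 4 libraries together; right, share of cells with each gene by class of leading receptor and library, class I as circles and class II as squares. Receptors fall mostly at high or low Nqo1 with Acsm4 following, and class I cells lie above class II cells for Nqo1 and Acsm4 and at 0 to 1.64% for Ncam2.

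Outside the neuronal gates, the genes were read in cells grouped by at least 3 detected markers of 1 type, thinned to the same 1500 UMIs. Leukocytes were taken as a reference for free RNA, and whether they use any of these genes themselves was not tested. Nqo1 was in 4 of 117 of them (3.42%), Robo2 in 1 (0.855%), and Acsm4, Ncam2 and Robo1 in 0, which allows a share of up to 2.56%. Omp itself was in 8.55% of these leukocytes. Acsm4 was well above its share in leukocytes in several non-neuronal types: 23.3% of sustentacular cells, 22.1% of microvillar cells and 19.2% of horizontal basal cells. In the sustentacular and microvillar groups Nqo1 was in 1.11% and 0.962%, no more than in leukocytes, so Acsm4 was there mostly without detected Nqo1. Without the P3 library, Nqo1 was in 1.59% of leukocytes.

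Nqo1 was in 9.31% of horizontal basal cells (6.41 to 12.9%), where Omp was in 5.41%. Of the 31 such cells with Nqo1, 12 were among the 56 from P21, and the share was 6.86% (19 of 277) without that library. Ncam2 was in 0 of 333 horizontal basal, 0 of 90 sustentacular and 0 of 104 microvillar cells, and in 4 of 80 ensheathing glia (5%). All 4 of these glia were among the 40 from P3, and the other libraries gave 0 of 40. Robo2 was in 12.5% of stromal cells (10.1 to 15.3%), and in 7.63% (19 of 249) without the P3 library, with 34.1 to 99.1 CPM per library, and in 0 of 90 sustentacular and 0 of 104 microvillar cells. Robo1 was in 4.97% of stromal, 4.50% of horizontal basal and 4.44% of sustentacular cells, beside 1.64% to 2.62% of Omp gate cells. Of the 4 sustentacular cells with Robo1, 3 were from P0, and the share was 1.45% without that library and 7.50% without P7. Among horizontal basal cells Robo1 was in 0 of 51 at P7.

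**Figure D5:**
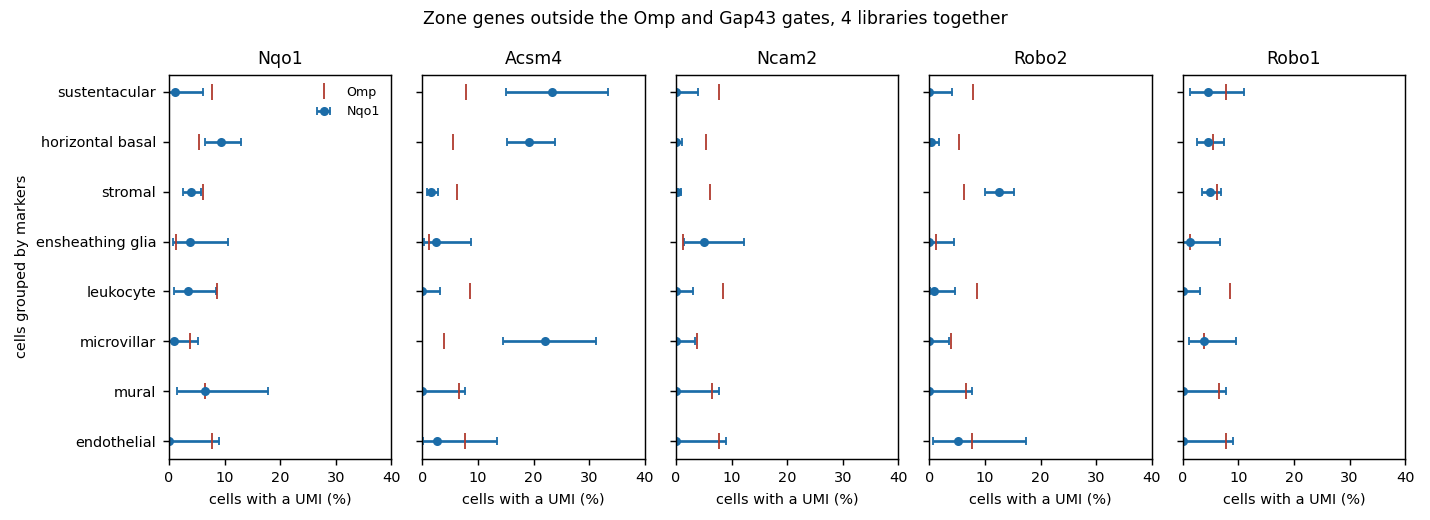
Share of cells with at least 1 UMI of each gene (horizontal axes, %, blue points with exact 95% binomial intervals) in cells outside both gates, grouped by markers and thinned to 1500 UMIs, 4 libraries together; red ticks give the share with Omp in the same cells. Acsm4 stands out in sustentacular, microvillar and horizontal basal cells and Robo2 in stromal cells.

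Genes whose detection was most like that of Nqo1 were ranked by the correlation of presence and absence over the thinned Omp gate cells of each library, averaged over 4 libraries. These cells share a library and its receptor mix, so the values are descriptions. After Acsm4 (mean correlation 0.49) came Cartpt, the CART neuropeptide (0.34), Sult1d1, a sulfotransferase (0.20), Socs2, an inhibitor of cytokine signalling (0.19), Nob1 (0.16), Ppa1, a pyrophosphatase (0.15), 4932412D23Rik (0.15) and Dusp26, a phosphatase (0.14). Cartpt was in 95.7%, 90.0%, 90.9% and 93.3% of Nqo1-positive cells, against 67.6%, 61.8%, 67.3% and 59.6% of Nqo1-negative ones. Nob1 lies 9.28 kb from Nqo1 on chromosome 8, and it was in 8.51%, 16.0%, 12.0% and 13.1% of Nqo1-positive cells, against 2.87%, 5.83%, 3.19% and 2.72% of Nqo1-negative ones.

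The genes most opposed to Nqo1 were led by Nfix (-0.33), a nuclear factor I transcription factor, and included Cidea, a lipid droplet protein (-0.21), Mt2 and Mt1, metallothioneins (-0.19 and -0.15), Ncam2 (-0.17), Nfib, a further nuclear factor I (-0.16), Gldc, a glycine-cleavage enzyme (-0.16), and Pcolce2 (-0.15). Nfix was in 6.08%, 10.3%, 11.5% and 8.95% of Nqo1-positive cells, against 31.6%, 33.0%, 39.4% and 46.2% of Nqo1-negative cells. Nfib was in 2.74%, 1.33%, 0.957% and 0% of Nqo1-positive cells, against 6.97%, 10.0%, 9.16% and 9.17% of Nqo1-negative cells. Acsm4 shared its nearest genes with Nqo1 (Nqo1, Cartpt and Ppa1 on 1 side, Nfix, Ncam2 and Mt2 on the other). Ncam2 was opposed by Nqo1, Acsm4 and Cartpt and had no gene past 0.1 on the positive side. Robo2 had Wwc1 alone (0.10), and Robo1 had none.

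In the Gap43 gate the nearest genes to Nqo1 after Acsm4 (0.42) were Cartpt (0.40), Sult1d1 (0.31), Jakmip1 (0.29) and Gnal, the olfactory G protein subunit (0.25), and the most opposed were Hdac2 (-0.23), Rprm (-0.20), Crabp1 (-0.19), Vim (-0.17) and Gas5 (-0.17). Gnal is known from maturing and Vim from early cells, and the part of maturation in these ranks was not tested.

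The genes around the members were read from 4 lists, of Slit and Robo signalling, of the other dorsal-ventral sorting molecules, of retinoid and nuclear factor I genes and of quinone and acyl-CoA metabolism. In the Omp gate, 8 of 15 Slit and Robo genes had enough UMIs, of which 4 were at least 1.5-fold higher and 0 lower at P21 than at P0 (median log2 0.56, against 0.10 over all genes). Over all genes in this gate, 19.5% were higher and 10.7% lower by this measure. The 4 were Srgap1 (1.74-fold) and Srgap2 (1.69-fold), GTPase-activating proteins that bind Robo receptors, the glypican Gpc1 (1.84-fold) and Flrt3 (5.79-fold, 1.41 to 51.1). Flrt3 had 20 UMIs at P21 and 2 at P0. It passed the floor of 20 UMIs only through P21, so its call is tied to that floor. The Slit ligands were low in OSNs. Slit2 was 76.0 CPM in microvillar, 45.0 in stromal and 43.4 in sustentacular cells (4 libraries together), against 3.35 CPM in the Omp gate, and Slit1 was 5.88 CPM in the Omp gate.

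Of 9 sorting molecules, which include Ncam2, 2 were higher at P21 than at P0, Plxna1 (1.68-fold) and Ncam1 (1.64-fold). The repellent Sema3f was the 1 lower (0.428-fold, 0.215 to 0.837). It had 23 UMIs at P0 and 17 at P21, and passed the floor of 20 UMIs only through P0, so its call is tied to that floor. The shares of the list called higher and lower were close to those of all genes (19.5% higher and 10.7% lower), and the median log2 was 0.19. Nrp2, the receptor for Sema3f that is known from ventral OSNs, was less frequent in Nqo1-positive than in Nqo1-negative mature cells, with differences of -4.13, -8.02, -9.56 and -5.53 points, and Sema3f differed by 2.22, 0.372, -0.238 and 1.26 points. Of 7 retinoid and nuclear factor I genes measured, 5 were higher, among them Nfix (1.96-fold) and Nfib (1.60-fold), and 1 was lower, Cyp26b1, a retinoic acid-degrading enzyme (0.534-fold), beside 19.5% and 10.7% of all genes. Of 7 quinone and acyl-CoA genes measured, 2 were higher and 0 lower, Nfe2l2 (2.16-fold), a factor that acts through antioxidant response elements, and Hmox1 (2.79-fold), again beside 19.5% and 10.7% of all genes. Nqo1 itself was 0.486-fold over the same pair of libraries.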

How the data were processed

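The 4 deposited tables hold raw UMI counts per gene and cell barcode. Per the labels' protocols, papain-dissociated cells went through the 10x Chromium 3' v2 kit. Cell Ranger 2.1.1 and Seurat, with the mm10 build, are listed in the submitters' processing notes, without their roles or the choice of barcodes.

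From these deposited counts, cells with at least 500 genes and at most 10% mitochondrial and 10% haemoglobin UMIs were kept, 9084 of 9126. Scrublet called 25 cells (0.274%), too few for the caller to be taken as having worked. Its calls were removed, and an alternative removed the highest scores at 0.8% per 1000 cells. UMIs were summed per library and gate and given as CPM, each total scaled to the same size, with exact Poisson intervals. Ratios have exact conditional binomial intervals, shares Clopper-Pearson intervals and differences of shares an interval built from those of both shares. All are at 95% and cover counting error only. For shares, each cell was thinned at random to 1500 UMIs, which left out 113 Omp gate and 29 Gap43 gate cells. A count of 0 was given the limit that 3 counts allow.

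Age folds cover genes with at least 20 UMIs in either group and are called at 1.5-fold. Genes alike were ranked by the mean within-library correlation of detection, over genes detected in 2 to 98% of cells, kept with 1 sign in all 4 libraries and a mean of at least 0.1, up to 8 each way for Nqo1 (5 in the Gap43 gate) and 3 for the others. GENCODE vM21 (GRCm38) gave positions for 47240 of 49671 symbols (95.1%), and RefSeq (GRCm38.p6) the promoters. Python 3.11.15 was used with numpy 2.4.6, scipy 1.17.1, pandas 2.3.3, scanpy 1.11.5 and matplotlib 3.10.9, and the scripts were tested on simulated data. The members, gene lists and rules were chosen with earlier results of these data known. Results on 1 early group of cells are not reported here. With 1 library per age, no test across samples was run. Alternatives covered the gates, thinning, filters, doublets, scaling, weighting of cells and the earlier library.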

Additional observations from a re-analysis of the deposited data

Results flagged for a closer look

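Between P21 and P7 the dorsal genes moved in opposite directions in the 2 gates, and this difference was not tested, since each age is 1 library. The log2 ratio of P21 over P7 was -0.27 for Nqo1 in the Omp gate and 0.88 in the Gap43 gate. For Acsm4 it was -0.49 in the Omp gate and 0.66 in the Gap43 gate. Beside it, Omp was 2.25-fold as high at P21 as at P7 in the Gap43 gate, and cells that also passed the Omp gate were 55.1% of it at P21 and 26.4% at P7. In Gap43 cells without Omp, Nqo1 was 124 CPM at P21 and 108 CPM at P7, and in cells past both gates 1115 CPM at P21 and 917 CPM at P7. The part of this shift in maturity in the result was not tested.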

How the results depend on the processing

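Alternative values were compared with the counting interval of the reported value, and the count of genes past 1.5-fold with a limit of 1.5-fold. The spread between libraries did not enter. Of 74 alternative values of the main results, 49 stayed within these limits, 25 moved beyond them and 0 changed sign as a called value. Of 362 for other results, 313 stayed, 47 moved and 2 reversed. The reversals were both with P7 in place of P0 in the Gap43 gate, where the log2 ratio was 0.88 for Nqo1 and -0.20 for Ncam2.

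Depth set the size of the pair differences. Acsm4 by Nqo1 in the Omp gate was 40.6 points at 1000 UMIs, 59.4 at 2500, 59.2 not thinned and 58.7 with at least 2 UMIs of each gene, not thinned. Ncam2 by Nqo1 was -6.39 points at 1000 UMIs, -15.7 at 2500, -26.5 not thinned, and -11.36 and -11.42 in 2 of 3 new draws, which were added after seeing the data. Robo2 by Nqo1 in the Gap43 gate was 7.58 points not thinned. The shares outside the gates without 1 library were also added after seeing the data.

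The log2 ratio of Nqo1 at P21 over P0 in the Omp gate was -0.97 with a gate of 2 UMIs, -1.12 with 5 UMIs, -1.19 with exclusive gates, -1.13 with the gate on thinned counts and -1.12 as a mean over cells. It was -0.66 against P3 and -0.27 against P7. That of Ncam2 was -0.42 against P7. The log2 ratio of Nqo1 between gates was 3.44 with 2 UMIs, 2.33 with 5 UMIs, 1.15 with shared cells counted in both, 2.03 with the gate on thinned counts, 3.19 with median-of-ratios scaling and 2.85 as a mean over cells. Genes past 1.5-fold at P21 over P0 numbered 3221, and 1306 with a floor of 100 UMIs, where fewer genes were compared. No paired analysis was possible because each age is 1 library. The cause of the other moves was not tested.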
